A study of Oryza sativa with 12 samples.

Results

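Withdrawal of zinc from 6 rice genotypes was followed in the crown, the compact stem base from which leaves, tillers and crown roots arise, by comparing all 6 libraries grown without Zn with all 6 grown with it. These are the whole series of 12 libraries, and the comparison averages over the genotypes' classes of zinc efficiency. All genes of the authors' deposited table for this contrast were included, which are 33277 in number. Plants were raised for 2 weeks, then moved to full-strength Yoshida solution, a standard rice medium, with ZnSO4 at either 1.5 µM (+Zn) or 0 µM (−Zn), and harvested 8 days later. Every group also received 1 mM KHCO3 and 0.1% agar, so bicarbonate and stagnant medium were shared by the controls. The labels class Nipponbare, RIL46 and IR55179-3B-11-3 as Zn-efficient. Kinandang Patong, IR74 and IR64 are the Zn-inefficient genotypes. Each genotype gave 1 library per supply, so the replicates of a supply are different genotypes and the spread between plants of a genotype was not measured. Values of single libraries were not analysed here, because the tables used hold 1 estimate per gene and contrast.

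Zinc is a structural or catalytic part of many enzymes and transcription factors and enters plant cells largely through ZIP family transporters. In Arabidopsis, a pair of bZIP factors switches on ZIP and nicotianamine synthase genes when cellular zinc is low. Nicotianamine binds zinc and iron for transport within the plant, and in grasses it is also the precursor of the mugineic acids, iron and zinc chelators that roots secrete.

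The tissue label was checked against marker genes. OSH1 (OS03G0727000), a homeobox gene of the shoot meristem, had a mean of 1297 normalized counts over the 12 libraries per the authors' deposited table, and OSH15 (OS07G0129700), its relative in stems and meristems, had 1407 there. The crown root genes WOX11 (OS07G0684900), CRL5 (OS07G0124700) and CRL1 (OS03G0149100) were detected at 144, 56.7 and 42.2 normalized counts per the authors' deposited table. The 7 genes of the root list, which are those of the root-specific RCc2 and RCc3 proteins and an AP2/ERF factor gene described for the root meristem (OS05G0389000), ranged from 2.83 to 2933 normalized counts, and the 52 photosystem and light-harvesting genes from 0.0836 to 1948, per the authors' deposited table. The samples thus held RNA of meristem, crown root, root and green tissue markers. The summed mean over all genes was 8145780 normalized counts, of which the 10 highest genes held 4.52%.

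Far more genes rose than fell when zinc was withheld. By the authors' deposited table, 234 of 25373 tested genes rose (0.922%) and 50 fell (0.197%), where a call is an adjusted p under 0.05 in the authors' test of a change beyond 2-fold. The median log2 fold change of all tested genes was 0.00 per the authors' deposited table. Log2 fold changes here are −Zn over +Zn. Rises had a median of 3.18 and ran from 1.24 to 10.04, and falls had a median of −2.59 and ran from −1.22 to −6.54, in log2 units per the authors' deposited table. When the question was any change instead of one beyond 2-fold, computed from the authors' deposited estimates, 4536 genes lay above 0 (17.9%) and 4122 below (16.2%). The excess of rises over falls was thus larger among changes beyond 2-fold.

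**Figure D1:**
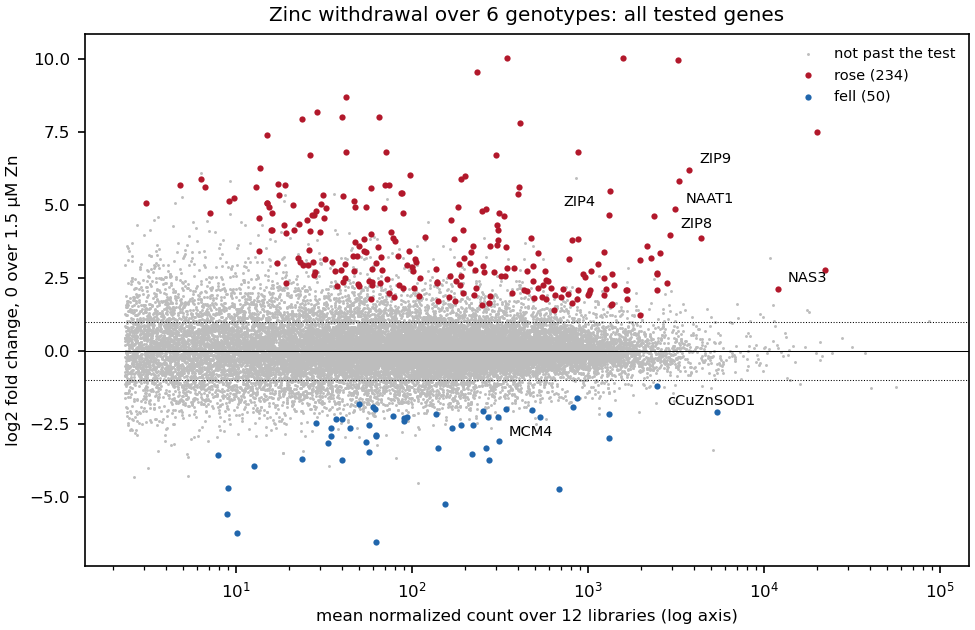
Each point is 1 of the 25373 tested genes, with the mean normalized count over 12 libraries on a log x axis and the log2 fold change of 0 over 1.5 µM Zn on the y axis; dotted lines mark a 2-fold change. The 234 rises (red) outnumber the 50 falls (blue), and the labelled zinc transporter genes lie among the strongly expressed rises.

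Genes for the transport of zinc into cells showed a graded RNA response within a single family. ZIP4 (OS08G0207500), ZIP5 (OS05G0472700), ZIP7 (OS05G0198400), ZIP8 (OS07G0232800) and ZIP9 (OS05G0472400) rose, which are 5 of the 10 members tested among 12 listed, against 0.922% of all tested genes, and 0 fell. The tested members had a median log2 fold change of 2.77 per the authors' deposited table, against 0.00 over all genes. For ZIP9, a zinc uptake transporter, group means derived from the authors' deposited tables were 124 normalized counts with Zn and 6927 without it in efficient genotypes, and 80.0 and 7896 in inefficient ones. Its log2 fold change over all genotypes was 6.21 (SE 0.29, adjusted p = 8.25e-69), or 73.9-fold, per the authors' deposited table. ZIP4, which distributes zinc between root and shoot and within the shoot, had derived means of 84.0 with and 2067 without Zn in efficient genotypes, and of 114 and 3011 in inefficient ones, by the authors' deposited tables. It rose by 4.67 (SE 0.19, adjusted p = 9.14e-81) in log2 units per the authors' deposited table. For both genes the 2 group means without Zn lay far above the 2 with Zn.

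ZIP8, ZIP7 and ZIP5 rose by nearly the same amount. Their log2 fold changes were 3.98 (SE 0.27), 3.87 (SE 0.47) and 3.85 (SE 0.27) per the authors' deposited table. ZIP5 and ZIP8 encode zinc transporters of the plasma membrane, and ZIP7 delivers zinc to developing tissues. The SE of ZIP7 was the widest of the 5, and its derived means went from 604 to 8635 normalized counts in efficient and from 514 to 7685 in inefficient genotypes, by the authors' deposited tables.

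The other family members did not pass the test. ZIP2 (OS03G0411800) had a log2 fold change of 1.59 (SE 0.31), ZIP1 (OS01G0972200) of 0.98 (SE 0.27) and ZIP6 (OS05G0164800) of 0.49 (SE 0.16) per the authors' deposited table. IRT1 (OS03G0667500), an iron transporter that also carries zinc, stood at 1.69 (SE 0.44) per the authors' deposited table. ZIP3 (OS04G0613000), which unloads zinc from the xylem at the nodes, was the 1 tested member below 0, at −1.02 (SE 0.67) per the authors' deposited table. In the test of any change, 9 of the 10 members lay above 0, every one tested except ZIP3. An overlapping list of ZIP transporters drawn from product words was less uniform. Its 11 tested members had a median of 0.49 per the authors' deposited table, 4 of them had estimates below 0, and 6 lay above 0 in the test of any change. ZIP10 (OS06G0566300) and IRT2 (OS03G0667300) were not tested, with means of 1.65 and 13.0 normalized counts per the authors' deposited table.

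**Figure D2:**
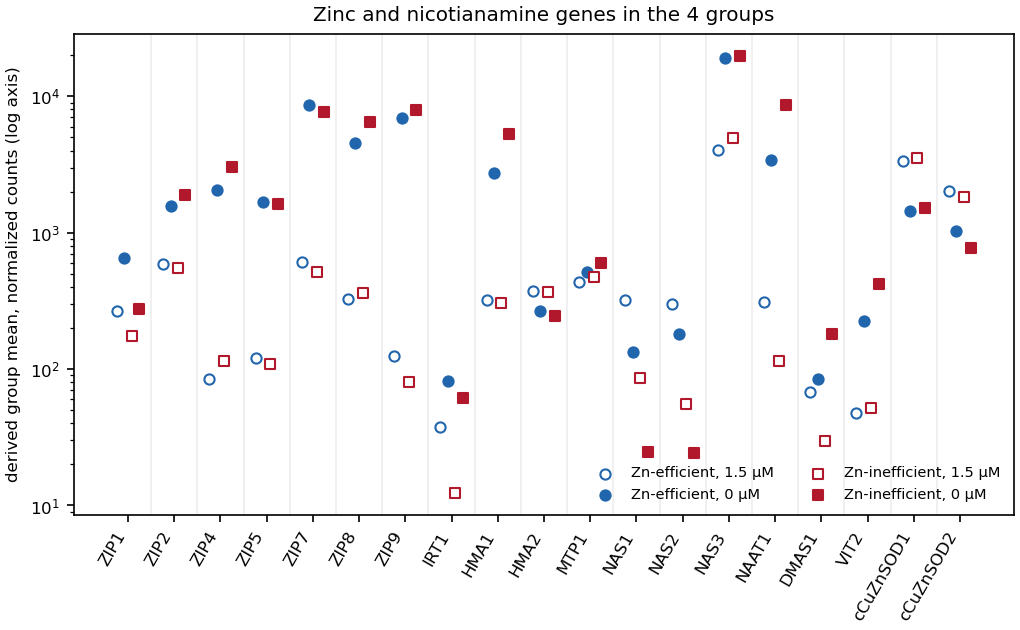
Each marker is a group mean in normalized counts (log axis), derived from the authors' deposited tables, for 1 gene and 1 of 4 groups of 3 libraries; no error bars are shown because values per library were not analysed here. ZIP4, ZIP5, ZIP7, ZIP8, ZIP9, HMA1, NAS3 and NAAT1 have both filled markers (0 µM Zn) above both open ones (1.5 µM Zn), and cCuZnSOD1 has them below.

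Of 10 metal ATPase, efflux and vacuolar transporter genes, HMA1 (OS06G0690700) alone rose (10%, against 0.922% of all tested genes) and 0 fell. HMA1 is annotated as a cadmium and zinc transporting ATPase, and its Arabidopsis relative sits in the chloroplast envelope. Its derived means were 323 and 2728 normalized counts with and without Zn in efficient genotypes, and 303 and 5257 in inefficient ones, by the authors' deposited tables. It rose by 3.60 (SE 0.20, adjusted p = 2.19e-35) in log2 units per the authors' deposited table. VIT2 (OS09G0396900), a vacuolar iron and zinc transporter, lay just outside the threshold at 2.64 (SE 0.48, adjusted p = 0.0552) per the authors' deposited table. HMA2 (OS06G0700700), which loads zinc for transport from root to shoot, stood at −0.53 (SE 0.12) and the vacuolar zinc transporter MTP1 (OS05G0128400) at 0.29 (SE 0.13) per the authors' deposited table, and neither passed. The median of this list was 0.26 per the authors' deposited table.

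Nicotianamine genes split between members. NAS3 (OS07G0689600), a nicotianamine synthase, rose by 2.13 (SE 0.14, adjusted p = 1.81e-12) in log2 units per the authors' deposited table, and its derived means went from 4012 to 19035 normalized counts in efficient and from 4922 to 19861 in inefficient genotypes. The other synthases, NAS1 (OS03G0307300) and NAS2 (OS03G0307200), did not pass and lay on the other side of 0, at −1.53 (SE 0.56) and −0.96 (SE 0.45) per the authors' deposited table. These share sequence, and how reads common to them were counted is not stated in the sources used. NAAT1 (OS02G0306401), the aminotransferase that takes nicotianamine towards mugineic acid, rose by 4.85 (SE 0.48, adjusted p = 8.68e-13) in log2 units per the authors' deposited table. Its derived means were 310.4 and 3436 normalized counts with and without Zn in efficient genotypes, and 114 and 8644 in inefficient ones, by the authors' deposited tables. The locus assigned to DMAS1 (OS03G0237100, described as a reductase), the enzyme of the next step, did not pass over all genotypes at 1.44 (SE 0.44) per the authors' deposited table.

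Apart from NAS3 and NAAT1, no gene of the nicotianamine and iron list passed the test. Of its 14 genes, 2 rose (14.3%, against 0.922% of all tested genes) and 0 fell. There were 9 values below 0 and the median was −0.36 per the authors' deposited table. IRO2 (OS01G0952800), the transcription factor that induces iron uptake genes, had 0.54 (SE 0.32), and YSL15 (OS02G0650300), the root transporter of iron bound to deoxymugineic acid, had −0.91 (SE 0.44), per the authors' deposited table. TOM1 (OS11G0134900, described as a major facilitator antiporter), which exports deoxymugineic acid, had −2.48 with SE 1.57 at a mean of only 2.44 normalized counts per the authors' deposited table. None of these 3 passed.

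Genes of zinc-containing enzymes differed in direction. The cytosolic copper/zinc superoxide dismutase gene cCuZnSOD1 (OS03G0351500) fell by 1.22 (SE 0.05, adjusted p = 0.00156) in log2 units per the authors' deposited table. Its derived means were 3347 and 1433 normalized counts with and without Zn in efficient genotypes, and 3512 and 1512 in inefficient ones, by the authors' deposited tables. This was the smallest called fall, and it passed through a narrow SE. It did not pass within either class alone. The second cytosolic gene, cCuZnSOD2 (OS07G0665200), did not pass at −1.11 (SE 0.09), and the plastid gene pCuZnSOD (OS08G0561700) stood at 0.75 (SE 0.10) per the authors' deposited table. MnSOD (OS05G0323900), the manganese enzyme of mitochondria, was at 0.02 (SE 0.19), CATA (OS02G0115700), a catalase, at 1.28 (SE 0.33), and APX1 (OS03G0285700), an ascorbate peroxidase, at 0.06 (SE 0.11) per the authors' deposited table, none past the test. Over all 8 tested genes described as superoxide dismutases, 1 fell (12.5%, against 0.197% of all tested genes) and 0 rose, with a median of 0.03 per the authors' deposited table.

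A carbonic anhydrase gene moved the other way. OS01G0639900, annotated as similar to the chloroplast form of this zinc enzyme, which interconverts CO2 and bicarbonate, rose by 3.18 (SE 0.18, adjusted p = 3.16e-29) in log2 units per the authors' deposited table. Its derived means went from 503 to 3457 normalized counts in efficient and from 399 to 4760.1 in inefficient genotypes. It was the 1 rise among 8 tested carbonic anhydrases (12.5%, against 0.922% of all tested genes), whose median was −0.45 per the authors' deposited table, and 0 fell. The adjoining carbonic anhydrase locus OS01G0640000, looked up after the values were seen, had −0.28 (SE 0.91) per the authors' deposited table. Of 41 genes of the alcohol dehydrogenase superfamily, which holds many zinc enzymes, 0 rose and 0 fell, and their median was 0.30 per the authors' deposited table. In the test of any change, 9 of these 41 lay above 0 and 1 below.

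Metallothioneins, small cysteine-rich proteins that bind zinc and copper, gave 0 calls among 10 tested genes, while 3 lay above and 3 below 0 in the test of any change. Members of high mean lay on both sides of 0, and those given here were chosen after their values were seen. OS01G0974200, with a mean of 56294 normalized counts, stood at −1.23 (SE 0.28), and OS05G0111300, with a mean of 40444, at −1.29 (SE 0.30), per the authors' deposited table. OS12G0571000 lay at 3.70 (SE 0.95, adjusted p = 0.234) per the authors' deposited table. The locus OS12G0570700, similar to a type 1 metallothionein, had 4.78 (SE 0.72) but no p-value per the authors' deposited table. Its derived means went from 92.2 to 621 normalized counts in efficient and from 84.7 to 9430 in inefficient genotypes, so its response was uneven. It was 1 of 526 genes whose mean reached 20 but which had no p-value there. Among these, 37 lay above a log2 fold change of 1 in both classes and 6 below −1, so the calls leave out some loci with large estimates. Why they had no p-value was not examined here, and their estimates are not counted as responses.

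The largest rises outside metal transport differed widely in their level with Zn. OS04G0280500, similar to a non-S-locus F-box-like protein, had derived means of 3.26 and 11.2 normalized counts with Zn in efficient and inefficient genotypes, and of 4789 and 8215 without it, by the authors' deposited tables. It rose by 9.95 (SE 0.49, adjusted p = 2.41e-72) in log2 units per the authors' deposited table. OS04G0561500, similar to prolyl endopeptidase, an enzyme that cuts peptides after proline, had derived means of 263 and 179 with Zn and of 30534 and 49578 without it, by the authors' deposited tables. It rose by 7.49 (SE 0.38, adjusted p = 6.89e-61) in log2 units per the authors' deposited table, at a mean of 20138 normalized counts. Both kept the 2 classes close together beside the distance between supplies.

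OS11G0702400, which encodes a zinc finger of the C2H2 type, rose by 9.57 (SE 0.75), a GDSL lipase gene, OS01G0651000, by 8.03 (SE 1.00), and a phospholipase A2 domain gene, OS05G0184901, by 6.82 (SE 0.83) in log2 units per the authors' deposited table. OS06G0145700, an ERF-type transcription factor gene, rose by 6.73 (SE 0.93) per the authors' deposited table. These 4 had derived +Zn means under 1 normalized count, so their fitted changes are imprecise and set no bound. Of the 226 rises for which group means could be derived, 29 shared this feature, and 53 reached a mean of at least 1000 normalized counts without Zn. OS09G0537700, of the ribonuclease T2 family that degrades RNA, rose by 5.83 (SE 1.28, adjusted p = 0.0190), and the chalcone synthase-like gene OS07G0271500 by 5.62 (SE 1.05, adjusted p = 0.00197), per the authors' deposited table. Neither passed within a class alone, and both had an SE above 1, against a median SE of 0.208 for genes whose mean was 20 or more. OS04G0627900, OS01G0584900 and OS01G0280500 complete the 12 largest with ZIP9 and are given with the classes.

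**Figure D3:**
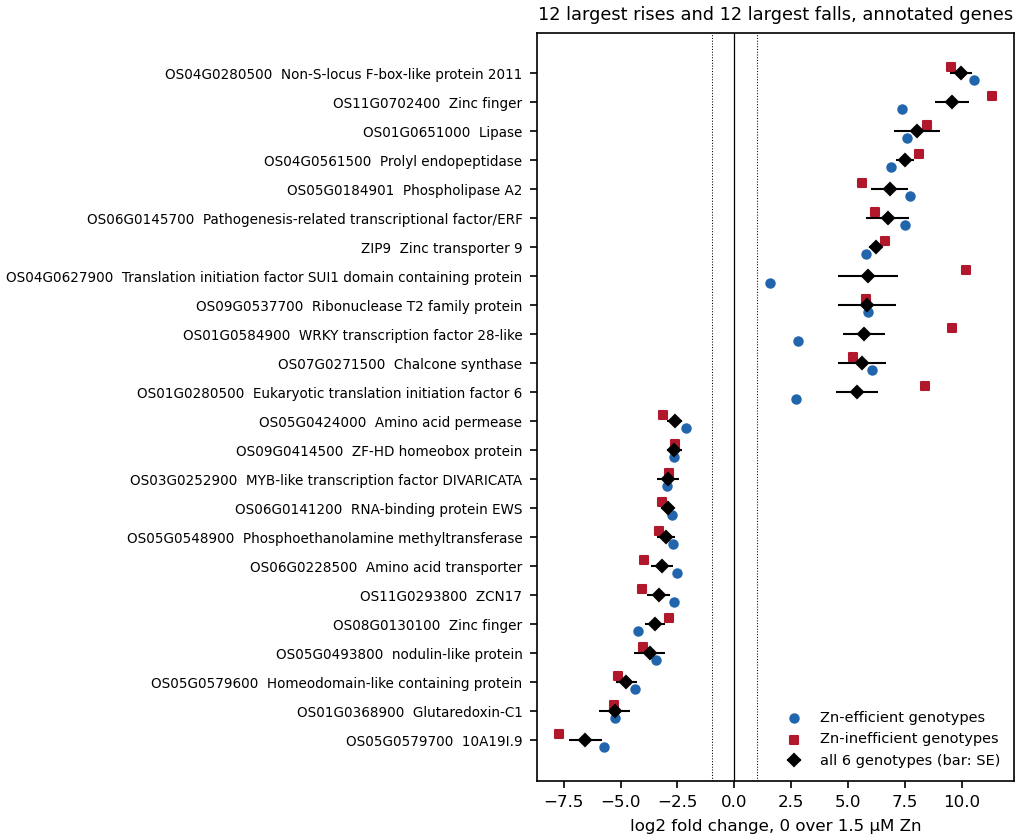
Log2 fold changes of 0 over 1.5 µM Zn for the 12 largest rises and 12 largest falls (called, annotated, mean of 20 normalized counts or more), over all 6 genotypes (black diamonds, bars are the deposited SE) and in each class (circles and squares). OS04G0627900, OS01G0584900 and OS01G0280500 have class estimates far apart, while the falls keep theirs closer.

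Strongly expressed rises included genes of varied function. Chitinase 9 (OS05G0399400), of a family that cuts the chitin of fungal walls, had the highest mean among the called genes with an annotated product, 22082 normalized counts, and rose by 2.76 (SE 0.48, adjusted p = 0.0279) in log2 units per the authors' deposited table. It did not pass within either class alone. Haemoglobin Hb2 (OS06G0591600), a plant haemoglobin, rose by 2.65 (SE 0.14, adjusted p = 3.97e-29) per the authors' deposited table. OS01G0960900, an oligopeptide transporter domain gene, rose by 4.62 (SE 0.33, adjusted p = 1.75e-24) there, with derived means of 244 and 5929.5 normalized counts in efficient and 130.4 and 3241 in inefficient genotypes per the authors' deposited tables. A haem peroxidase gene, OS04G0688300, rose by 3.36 (SE 0.28), and a glutamate carboxypeptidase-like gene, OS01G0740500, by 2.62 (SE 0.21), per the authors' deposited table. The tetratricopeptide gene OS02G0109800 had the smallest called rise, 1.24 with SE 0.05, per the authors' deposited table. Hb2 was named after its value was seen.

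The largest falls came from genes of varied annotation. The homeodomain-like gene OS05G0579600 had derived means of 1293 and 1331 normalized counts with Zn and of 62.5 and 38.3 without it in the 2 classes, by the authors' deposited tables. It fell by 4.74 (SE 0.46, adjusted p = 3.11e-13) in log2 units per the authors' deposited table. Its neighbour in identifier order, OS05G0579700, fell by 6.54 (SE 0.72, adjusted p = 8.72e-12), the largest fall of all, per the authors' deposited table. A glutaredoxin-C1-like gene, OS01G0368900, of small redox proteins that use glutathione, fell by 5.27 (SE 0.69, adjusted p = 2.07e-07) per the authors' deposited table. It was the 1 call among 103 glutaredoxin and thioredoxin genes (0.971%, where 0.197% of all tested genes fell), whose median was 0.05 per the authors' deposited table.

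A ZF-HD homeobox gene, OS09G0414500, fell by 2.63 (SE 0.33) and a gene similar to maize ZCN17 (OS11G0293800), of the family of the flowering signal FT, fell by 3.33 (SE 0.52), per the authors' deposited table. An LSD1-type zinc finger gene, OS08G0130100, fell by 3.48 (SE 0.44), and a gene similar to the MYB factor DIVARICATA, which shapes petals in snapdragon, OS03G0252900, by 2.92 (SE 0.50), per the authors' deposited table. Of 125 tested homeobox genes, 2 fell (1.6%, against 0.197% of all tested genes) and 0 rose, with a median of −0.09 per the authors' deposited table. The amino acid transporter genes OS06G0228500, OS05G0424000 and OS12G0156866 fell by 3.17 (SE 0.48), 2.63 (SE 0.35) and 2.53 (SE 0.36) in log2 units per the authors' deposited table. They were 3 of 107 tested amino acid and peptide transporters (2.80%, where 0.197% of all tested genes fell). Among these OS01G0960900 was the 1 rise, and the list median was 0.26 per the authors' deposited table. OS05G0548900, similar to phosphoethanolamine methyltransferase, an enzyme of phosphocholine synthesis, fell by 3.00 (SE 0.41, adjusted p = 2.74e-04) per the authors' deposited table. The nodulin-like gene OS05G0493800 and the EWS-like RNA-binding protein gene OS06G0141200 fell by 3.71 (SE 0.69) and 2.93 (SE 0.30) per the authors' deposited table.

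Genes of DNA replication lay below 0 together, with few past the 2-fold test. MCM4 (OS01G0544450) and MCM2 (OS11G0484300), subunits of the helicase that opens DNA at replication origins, fell by 2.27 (SE 0.34, adjusted p = 0.0181) and 2.03 (SE 0.29, adjusted p = 0.0334) in log2 units per the authors' deposited table. For MCM4 the derived means went from 481 to 154 normalized counts in efficient and from 532 to 70.5 in inefficient genotypes. The subunits MCM6 (OS05G0235800) and MCM7 (OS12G0560700) lay just outside the threshold at −2.10 (SE 0.32, adjusted p = 0.0512) and −2.00 (SE 0.29, adjusted p = 0.0578) per the authors' deposited table. MCM5 (OS02G0797400), MCM3 (OS05G0476200) and the sliding clamp PCNA (OS02G0805200) had −2.04 (SE 0.35), −1.91 (SE 0.38) and −1.77 (SE 0.27), and RNRL1 (OS06G0168600), the ribonucleotide reductase that makes DNA precursors, −1.22 (SE 0.21), per the authors' deposited table. All 8 of these core genes lay below 0 in the test of any change, at a median of −2.01 per the authors' deposited table. Neither MCM call held when the SE was widened by the difference between classes.

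The wider description-based lists gave the same picture of many modest values. Of 42 DNA replication genes, 2 fell (4.76%, against 0.197% of all tested genes), 40 lay below 0 and the median was −1.17 per the authors' deposited table. In the test of any change 28 of them were below 0, or 66.7%, against 16.2% of all tested genes. Histones, which package new DNA, gave 0 calls among 47 tested genes, with a median of −1.11 per the authors' deposited table and 28 below 0 in the test of any change. Among 61 cyclin and mitotic kinesin genes there were 0 calls, and the median was −0.34 per the authors' deposited table. The mitotic genes CYCB1;1 (OS01G0805600), CYCB2;2 (OS06G0726800), CDKB2;1 (OS08G0512600) and CDKB1;1 (OS01G0897000) had −1.53 (SE 0.45), −1.53 (SE 0.46), −1.46 (SE 0.38) and −0.90 (SE 0.21) per the authors' deposited table and did not pass over all genotypes. Their median was −0.52 in efficient and −2.41 in inefficient genotypes per the authors' deposited tables. CYCB1;1 passed in inefficient genotypes at −2.59 (SE 0.49, adjusted p = 0.0375), against −0.48 (SE 0.48) in efficient ones, per the authors' deposited tables, while none of the 4 class differences passed. Cytosolic ribosomal protein genes also lay low, with 0 calls among 239, a median of −0.43 per the authors' deposited table and 129 below 0 against 8 above in the test of any change. In bulk tissue, fewer dividing cells and less of these RNAs per cell cannot be told apart.

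Few tissue markers passed the 2-fold test. The 7 genes of the root list had 0 calls, all values below 0 and a median of −0.74, while the 41 tested photosystem genes had a median of 0.30, per the authors' deposited table. Summed over the 7 root genes, derived means were 4133 normalized counts with and 3901 without Zn in efficient genotypes, and 4052 and 1508 in inefficient ones, by the authors' deposited tables. The same sums over 46 of 52 photosystem genes were 8179 and 10742 in efficient and 9952 and 11090.4 in inefficient genotypes. The root sum was mostly the RCc3 gene OS02G0662000, at 3515 and 3486 normalized counts with and without Zn in efficient and 3479 and 1254 in inefficient genotypes by the authors' deposited tables. Other RCc3 genes did not move alike. OS04G0554600 had class estimates of −4.09 (SE 1.49) in efficient and −2.82 (SE 1.44) in inefficient genotypes. OS04G0554500 had −2.81 (SE 1.29) and −3.63 (SE 1.32), while OS04G0554800 had 0.48 (SE 0.48) and −1.13 (SE 0.48). None of these passed the test, per the authors' deposited tables. The replication core sum went from 4302 to 1721 in efficient and from 5023 to 944 in inefficient genotypes. No gene of the root list had a mean of 0. The part of tissue makeup in the results on division and transport genes was not tested. OSH1 and OSH15 stood at −0.84 (SE 0.25) and −0.11 (SE 0.10), and WOX11, CRL1, CRL5 and the GNOM-like gene CRL4 (OS03G0666100) at 0.42 (SE 0.26), −0.18 (SE 0.35), −1.18 (SE 0.54) and −0.32 (SE 0.07), per the authors' deposited table. None of these passed. WOX11 had 0.94 (SE 0.30) in efficient and −0.11 (SE 0.31) in inefficient genotypes per the authors' deposited tables, a difference that did not pass (adjusted p = 0.236, from a normal test with Benjamini-Hochberg adjustment). Called photosystem genes went opposite ways. The photoprotective 22-kDa protein of photosystem II (OS04G0690800) fell by 2.29 (SE 0.30) and a photosystem II 10 kDa polypeptide gene (OS07G0147500) rose by 2.56 (SE 0.39) per the authors' deposited table.

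**Figure D4:**
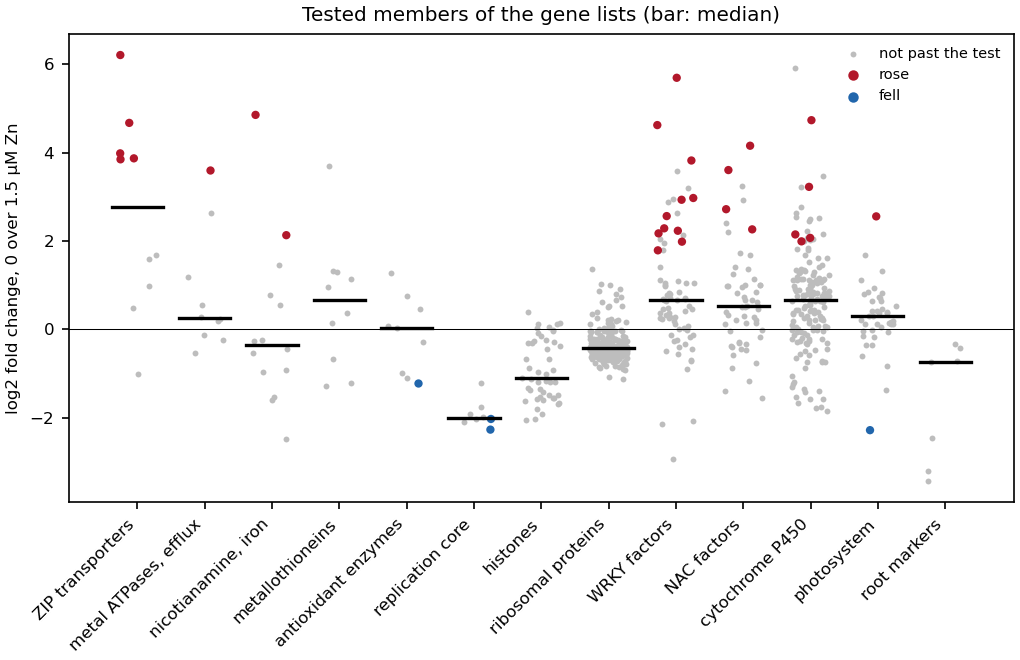
Each point is 1 tested member of a gene list, with its log2 fold change of 0 over 1.5 µM Zn on the y axis; red members rose, blue ones fell, grey ones did not pass, and black bars are list medians. The ZIP median is 2.77 and the replication core median −2.01, while WRKY, NAC and cytochrome P450 members spread upward from medians of 0.67, 0.52 and 0.66.

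WRKY transcription factors, which regulate immunity and senescence, supplied the most rises of any list. Of 74 tested members, 11 rose, or 14.9% against 0.922% of all tested genes, and 0 fell, with a median log2 fold change of 0.67 per the authors' deposited table. WRKY76 (OS09G0417600), a repressor of defence genes in rice, rose by 4.62 (SE 0.82, adjusted p = 0.00187) and WRKY45 (OS05G0322900), a regulator of blast resistance, by 2.97 (SE 0.50, adjusted p = 0.0105), in log2 units per the authors' deposited table. WRKY24 (OS01G0826400) and WRKY10 (OS05G0537100) rose by 2.17 (SE 0.29) and 2.23 (SE 0.28) per the authors' deposited table. With the SE widened by the difference between classes, 0 WRKY genes passed in place of 11.

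NAC factors gave 4 rises among 56 tested members (7.14%, against 0.922% of all tested genes), at a median of 0.52 per the authors' deposited table. They were led by OS12G0156100 at 4.15 (SE 0.74) and OS01G0816100 at 3.60 (SE 0.62) there. Of 64 ERF factors 2 rose (3.1%), with OS12G0582900, an AP2 domain gene, at 4.87 (SE 0.40, adjusted p = 4.99e-19) per the authors' deposited table. Cytochrome P450 genes, oxygenases of specialized metabolism, gave 5 rises and 0 falls among 162 (3.09% rose), at a median of 0.66 per the authors' deposited table. Among them OS03G0140200, similar to the fatty acid hydroxylase CYP86A1, rose by 2.15 (SE 0.21), and OS10G0165300 by 2.07 (SE 0.20), per the authors' deposited table. In the test of any change 34.0% of tested P450 genes, 50% of WRKY and 41.1% of NAC genes lay above 0, against 17.9% of all genes.

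Other defence genes were mixed. Among 36 pathogenesis-related genes 0 rose and 1 fell (2.78%, against 0.197% of all tested genes). This was a Bet v I family gene (OS08G0374000) at −2.18 (SE 0.27) per the authors' deposited table. The 6 tested diterpene phytoalexin genes gave 0 calls, and their median was −0.89 in efficient and 2.25 in inefficient genotypes per the authors' deposited tables. NPR1 (OS01G0194300), the receptor-like coactivator of salicylic acid signalling, stood at 0.77 (SE 0.22) per the authors' deposited table and did not pass. Chitinases, grouped after their values were seen, had 4 rises and 0 falls among 33 tested genes, where 0.922% of all tested genes rose. Their median was 1.18 per the authors' deposited table. Besides chitinase 9 these were OS03G0132900 at 3.38 (SE 0.54), OS10G0542900 at 3.12 (SE 0.57) and OS01G0660200 at 2.15 (SE 0.32) per the authors' deposited table. Jasmonate, heat shock, glutathione S-transferase, aquaporin, bZIP, gibberellin and pectin enzyme lists had 0 calls in either direction, at medians between −0.30 and 0.39 per the authors' deposited table. In the test of any change, 17 of 40 glutathione S-transferase genes lay above 0 (42.5%) and 8 below (20%). The shares of all tested genes were 17.9% and 16.2%.

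Most remaining lists held few calls, and several were near the share of all tested genes that rose, 0.922%. F-box genes, whose products select proteins for degradation, gave 4 rises among 285 tested (1.40%), led after OS04G0280500 by OS09G0342000 at 4.49 (SE 0.91) and OS06G0166000 at 3.88 (SE 0.19) per the authors' deposited table. Proteases gave 3 among 367 (0.817%), below the share of all genes, and lipases 3 among 161 (1.86%), with medians of 0.11 and 0.13 per the authors' deposited table. Peroxidases and UDP-glycosyltransferases gave 2 each, among 110 and 122 tested, with medians of −0.04 and 0.35 per the authors' deposited table. C2H2 zinc finger, auxin response and expansin lists gave 1 rise each among 83, 131 and 73 tested genes, at medians of −0.06, −0.14 and −0.57 per the authors' deposited table. The auxin call was OS08G0529000, an auxin efflux carrier gene, at 3.85 (SE 0.65), and the cell wall call OS03G0144300, a xyloglucan galactosyltransferase-like gene, at 2.44 (SE 0.40), per the authors' deposited table. Lists drawn from product words, which overlap those above, gave 4 rises among 11 genes described as ZIP transporters, 1 among 17 heavy metal ATPases and cation efflux genes, and 2 among 14 nicotianamine and mugineic acid genes, all with 0 falls. The 9 antioxidant genes had 1 fall, cCuZnSOD1 (11.1%, where 0.197% of all tested genes fell), at a median of 0.02 per the authors' deposited table. The 3 tested defence genes had 1 rise, WRKY45 (33.3%), at a median of 0.95 there. Of ERF, pathogenesis-related and acid phosphatase genes the medians were 0.24, 0.30 and 0.17, and of 13 phosphate transport and SPX genes 0.24, per the authors' deposited table.

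Among phosphate genes, a single transporter passed the test. PT1 (OS03G0150600), a phosphate transporter, rose by 1.91 (SE 0.25, adjusted p = 0.0304) in log2 units per the authors' deposited table. It was the 1 call among 9 tested phosphate genes (11.1%, against 0.922% of all tested genes). The median of these 9 was −0.01 per the authors' deposited table. PHR2 (OS07G0438800), which activates phosphate starvation genes, had 0.16 (SE 0.08), and SPX1 (OS06G0603600), a phosphate sensor, had −0.01 (SE 0.21), per the authors' deposited table. An acid phosphatase gene, OS01G0191200, rose by 5.72 (SE 0.74) per the authors' deposited table, 1 of 30 tested (3.33%, against 0.922% of all tested genes).

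The average over genotypes was not the same as an equal response in each class. Of the 234 rises, 205 had the larger estimate in inefficient genotypes, with medians of 3.91 there and 2.30 in efficient ones, per the authors' deposited tables. Of the 50 falls, 38 were more negative in inefficient genotypes, with medians of −2.88 and −2.47 per the authors' deposited tables. In the authors' tests within each class alone, 65 of the 284 called genes passed in both classes and 41 in neither. The difference between class responses was tested from the deposited estimates for 283 of the 284 genes. Of these, 53, or 18.7%, passed at an adjusted p under 0.05, against 2.36% of all genes tested for it. The called genes were selected on an average of these same class responses, so the 2 shares are not independent of that selection. All 52 rises that passed were larger in inefficient genotypes. The 1 fall that passed, OS08G0503000, annotated only as a hypothetical protein and named after its value was seen, was deeper there. For the other 230 genes the median SE of the difference was 0.720 on the log2 scale, so differences well above that size could also go unseen. For example, OS04G0210250, picked after its value was seen, had a difference of 4.99 (SE 1.75) that did not pass.

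The clearest case of an average over unequal responses was OS03G0790500, an alpha/beta hydrolase gene. It rose by 4.15 (SE 0.81, adjusted p = 0.0137) over all genotypes, from class estimates of 1.03 (SE 0.43) and 7.28 (SE 0.44) in efficient and inefficient genotypes, per the authors' deposited tables. OS04G0627900, a SUI1 domain gene, had class estimates of 1.58 (SE 1.16) and 10.15 (SE 1.30), and OS01G0584900, a WRKY gene, of 2.79 (SE 0.68) and 9.54 (SE 1.23), per the authors' deposited tables. OS01G0280500, similar to the ribosome assembly factor eIF-6, had 2.71 (SE 0.87) and 8.38 (SE 1.07), per the authors' deposited tables. Each of these was thus far higher in inefficient genotypes than the average shows. In inefficient genotypes the derived +Zn means of OS04G0627900, OS01G0584900 and OS01G0280500 were only 0.659, 0.355 and 0.998 normalized counts. The sizes of their class estimates are therefore imprecise. For WRKY45 the derived means were 149 and 379.9 normalized counts with and without Zn in efficient genotypes, and 161 and 3876 in inefficient ones, by the authors' deposited tables. A calmodulin-binding protein-like gene (OS08G0360300), a pair of AAA-type ATPase genes (OS01G0623500 and OS07G0192000) and a VQ domain gene (OS06G0666400) had estimates of 2.51 and 7.51, 1.37 and 4.61, 1.49 and 3.98, and 1.49 and 4.30 in efficient and inefficient genotypes per the authors' deposited tables. VQ proteins are partners of WRKY factors.

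ZIP4 and ZIP9 had no called difference between classes, while HMA1 did. The 8 genes with the highest smaller ratio of estimate to SE in the 2 classes were OS04G0280500, ZIP9, ZIP4, HMA1, the carbonic anhydrase OS01G0639900, the F-box gene OS06G0166000, the tetratricopeptide gene OS02G0109800 and cCuZnSOD1. The difference between class responses, inefficient minus efficient, was 0.10 (SE 0.39) for ZIP4, 0.83 (SE 0.54) for ZIP9 and 0.01 (SE 0.10) for cCuZnSOD1 on the log2 scale, computed from the authors' deposited tables, and none of these passed. The differences of HMA1 and OS06G0166000 passed, at 1.04 (SE 0.24, adjusted p = 0.00294) and 0.99 (SE 0.23, adjusted p = 0.00183), as derived from the authors' deposited tables with normal p-values adjusted by Benjamini-Hochberg.

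**Figure D5:**
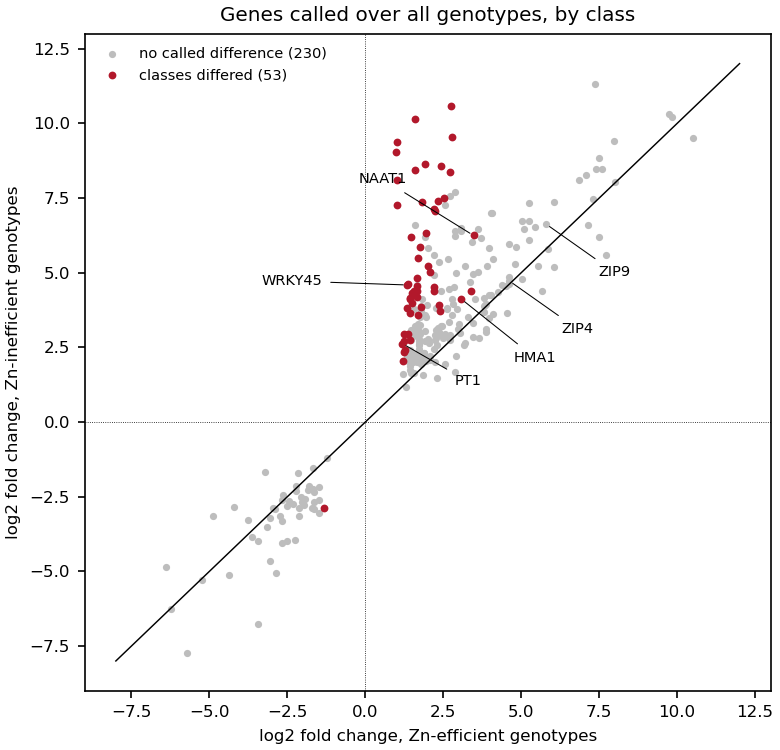
Log2 fold changes of 0 over 1.5 µM Zn in Zn-efficient (x axis) and Zn-inefficient genotypes (y axis) for the 283 called genes tested for a class difference, with the line of equal response. The 53 genes whose classes differed (red) lie above the line among rises and below it for the 1 fall, while ZIP4 and ZIP9 lie near it.

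The authors' deposited table of inefficient over efficient genotypes averages over both supplies. There 5 of the 284 genes passed the 2-fold test, against 0.0524% of all genes, and all 5 were higher in inefficient genotypes. They were OS11G0702400, the MADS-box gene OS06G0667200 and OS05G0142900, OS07G0267200 and OS08G0169100, which have no informative product, and were named after their values were seen. The difference between class responses passed for 1 of the 5, OS08G0169100, so for the others a class gap particular to −Zn was not shown. OS06G0667200 had derived means of 0.178 and 1.64 normalized counts with Zn in efficient and inefficient genotypes, and of 1.96 and 50.4 without it, by the authors' deposited tables. OS11G0702400 had derived means of 0.179 and 0.355 normalized counts with Zn in efficient and inefficient genotypes, and of 29.7 and 906 without it, by the authors' deposited tables. OS08G0169100 had 0.348 and 0.984 with Zn and 1.32 and 389 without it, by the same derivation from the authors' deposited tables.

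Loci without an informative product made up about the same share of called genes as of all tested genes. Of the 284 called genes, 100 (35.2%) carried no informative product description, against 34.2% of tested genes. The loci that follow were chosen after their values were seen. OS11G0437600, described only by a domain of unknown function, had derived means of 2.92 and 2.99 normalized counts with Zn and of 2467 and 3838 without it in the 2 classes, by the authors' deposited tables. It rose by 10.04 (SE 0.41, adjusted p = 1.76e-102) in log2 units per the authors' deposited table. OS10G0328600, a hypothetical protein gene, rose by 10.04 (SE 0.75, adjusted p = 7.95e-30) from derived +Zn means under 1, per the authors' deposited table. The smallest adjusted p of any gene, 2.36e-126, belonged to OS06G0566201, a hypothetical gene that rose by 6.83 (SE 0.24) per the authors' deposited table.

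That locus directly precedes ZIP10 in identifier order among the measured loci. Its derived means went from 10.1 to 1429 normalized counts in efficient and from 21.4 to 2061 in inefficient genotypes, whereas ZIP10 itself had a mean of 1.65, per the authors' deposited tables. A similar pair was ZIP4 and the hypothetical gene OS08G0207401 just before it, which rose by 7.95 (SE 1.16) per the authors' deposited table. ZIP9 and ZIP5 are themselves adjacent. In all, 38 of 282 called genes with a rice locus identifier (13.5%) stood beside another called gene in 19 adjacent pairs, against 1.86% of 24949 tested rice loci. Since 82.4% of all called genes were rises, many pairs would share a direction in any case, by a share not computed here. Of the 19 pairs, 18 moved the same way. The exception was OS05G0518600, similar to a trehalose-phosphate enzyme (SL-TPS/P), which fell by 1.61 (SE 0.13), beside the hypothetical gene OS05G0518750, which rose by 8.17 (SE 0.94), per the authors' deposited table. WRKY76 and WRKY62 (OS09G0417800, 3.82 with SE 0.79 per the authors' deposited table) form another pair. Use of strand in the counting is not stated in the sources used, so overlapping or run-on transcripts of such neighbours cannot be told apart.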

How the data were processed

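Per the submitters' processing notes, reads were handled with HISAT2 2.0.4, Subread's featureCounts (1.5.0-p3) and DESeq2 1.12.3, after FastQC 0.11.5 and Trimmomatic 0.36, on build IRGSP-1.0. The authors' deposited tables hold per gene a mean count signal (counts divided by size factors), a log2 fold change and its SE, the Wald score, and raw and adjusted p-values, per the file headers. Recomputing the deposited p-values as a two-sided Wald test beyond 2-fold gave them to within 3.04e-14, and adjusted p-values are Benjamini-Hochberg values over the genes passing the authors' low-count filter in DESeq2 (mean of at least 2.33 normalized counts). No p-value was given for 816 genes, and 7088 were filtered. Depth per library is unknown here, and the median SE in the authors' deposited table (0.208 on the log2 scale, genes with a mean of at least 20) gives the precision. With 1 library per genotype and supply, differences between genotypes, plants and libraries are not separated in the spread behind the p-values. The formula of the authors' model is not given in the labels.

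Computed here, with scipy 1.17.1, numpy 2.4.6 and pandas 2.3.3 under Python 3.11.15 (figures by matplotlib 3.10.9), were the any-change test (normal p of the estimate over its SE), class differences of the response (SE from the summed squared SEs), and group means derived from the overall mean and the within-group contrasts, where these closed to within 0.01 on the log2 scale. The formulas of the Wald test beyond 2-fold and of the class difference were run on simulated normal estimates drawn with the deposited SEs. That run took the SEs as given, so it cannot show whether they suit 1 library per genotype and supply. Named genes were the 12 largest rises and 12 largest falls and the 8 highest means among called genes with an informative product, up to 4 called members of each list, the 8 most shared and 6 most class-dependent genes, and a fixed set of zinc, iron, phosphate and division genes, with list members given as further values. Members and lists were chosen with earlier results of these data known. List symbols follow published assignments of rice locus identifiers. The deposited product texts do not carry the symbol for every locus and number some ZIP genes differently. Description lists were made by words in the product text, so a gene may stand in more than 1 list. Sequences and coordinates were not used here, so a planned promoter motif search was not run.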

Additional observations from a re-analysis of the deposited data

Results flagged for a closer look

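For 17 of the named genes the zinc response differed between the efficiency classes by the test of the difference itself, computed from the authors' deposited tables with Benjamini-Hochberg adjustment over all genes tested. The differences below are inefficient minus efficient on the log2 scale. They were 8.57 for OS04G0627900 (SUI1 domain), 6.75 for the WRKY gene OS01G0584900, 6.25 for OS03G0790500 (alpha/beta hydrolase), 5.67 for OS01G0280500 (similar to a translation initiation factor), 5.0013 for OS08G0360300 (calmodulin binding) and 4.86 for WRKY76 (OS09G0417600). Next came 3.79 for the NAC gene OS01G0816100, 3.24 for OS01G0623500 and 2.49 for OS07G0192000 (both AAA-type ATPases), 3.24 for WRKY45 and 2.81 for OS06G0666400 (VQ domain). Metal and nutrient genes followed with 2.78 for NAAT1, 2.27 for DMAS1, 1.43 for PT1, 1.04 for HMA1 and 0.99 for the F-box gene OS06G0166000. MCM6 was the 1 with a deeper negative response in inefficient genotypes, at −1.54. DMAS1 and MCM6 were not called over all genotypes. OS04G0627900, OS01G0584900 and OS01G0280500 had derived +Zn means under 1 normalized count in inefficient genotypes, so the sizes of their differences are imprecise.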

How the results depend on the processing

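No paired analysis was possible because the tables used hold no values per library, although each genotype was grown at both supplies, and for the same reason no library could be left out in turn. The 234 rises and 50 falls became 4536 and 4122 in a test of any change, 745 and 309 beyond 1.5-fold, and 403 and 100 with the equal-weight mean of the class estimates. With that mean's SE widened by the class difference they became 104 and 24, and 41 of 74 named called genes still passed, the ZIP genes, HMA1, NAS3 and cCuZnSOD1 among them but not NAAT1, PT1, WRKY45, MCM2 or MCM4. Efficient genotypes alone gave 64 and 9, inefficient ones 584 and 260. At an adjusted p under 0.01, rises numbered 163 and falls 26. Dropping the low-count filter, requiring a mean of at least 20 or recentring kept both counts within 1.5 times. The 53 class differences became 13 when a difference beyond 2-fold was asked for. CRL1, not called, turned to 0.15 in efficient genotypes alone, and WOX11, also not called, lay below 0 in inefficient genotypes alone. Except for the construction of each setting, causes of these shifts were not tested. Depth per library, and with it the limit for weakly expressed genes, was not analysed here.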

Other observations

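Some called genes outside the lists are given here as single values. They were chosen after their values were seen, and the other members of their families were not counted. The MADS-box genes OS04G0304400, OS02G0731200 and OS06G0667200, of a family that sets organ identity and flowering time, rose by 4.48 (SE 0.29), 3.72 (SE 0.35) and 4.55 (SE 0.71) in log2 units per the authors' deposited table. CCT domain genes, many of which act in light and flowering control, gave calls both ways, as OS06G0699600 rose by 2.08 (SE 0.15) and OS10G0466500 fell by 2.41 (SE 0.41) per the authors' deposited table. OS07G0624600, a trehalose-phosphate phosphatase gene of the pathway that signals sugar status, rose by 3.41 (SE 0.28), and OS01G0588900, of a cytokinin-activating enzyme, by 2.57 (SE 0.19), per the authors' deposited table. A phenylalanine ammonia-lyase gene, OS04G0518400, the entry enzyme of phenylpropanoid synthesis, rose by 3.63 (SE 0.55) per the authors' deposited table. The alpha-glucosidase genes OS07G0421300 and OS06G0676700 rose by 3.81 (SE 0.24) and 2.56 (SE 0.39) per the authors' deposited table.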
